A study of Mus musculus with 15 samples.

Results

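DNA replication machinery was followed here as a set of 46 genes, listed by name, that encode the origin recognition complex, the licensing factors, the Mcm2-7 helicase and its activators, the replicative DNA polymerases with their clamp and clamp loader, the single-strand binding protein RPA, the enzymes that finish Okazaki fragments, ribonucleotide reductase and the chromatin ATPase Atad2. Each of the 46 genes had 1 transcript among the 21727 in the count table, and all 46 passed the filter on low counts that left 10085 transcripts for testing. They were listed by name and not by a threshold on these counts, though with earlier results of the same data known.

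To copy its genome once per cycle, a cell loads the Mcm2-7 ring onto origins in G1 with the origin recognition complex, Cdc6 and Cdt1. In S phase the Cdc7-Dbf4 kinase and the partners Cdc45 and GINS turn that ring into the moving helicase. Mouse embryonic stem cells spend much of a short cycle in S phase and are known for high levels of these proteins.

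The measurements are ribosome-protected fragments (RPFs), the pieces of mRNA that ribosomes shield from RNAse, from the mouse embryonic stem cell line E14Tg2a.4. In the Rps27-FLAG line (eS27-FLAG in the sample labels) a 3xFLAG epitope stands before the stop codon of both copies of the endogenous Rps27 gene, in the Rps27l-FLAG line (eS27L-FLAG) it stands at the same place in the paralog Rps27l, and the wild-type (WT) line carries no tag. Rps27 and Rps27l encode the alternative small-subunit proteins eS27 and eS27L, so that the tag marks ribosomes that hold one or the other. Each line was represented by 3 clones of this parental line. The p-values rest on the spread between clones, which edgeR estimates for each transcript together with all tested transcripts. All clones were grown in serum with leukemia inhibitory factor and given cycloheximide at 100 µg/mL for 2 min before lysis, and fragments of 26 to 34 nt were taken. RPFs of all ribosomes (total RPFs) were sequenced from the 9 clones, and RPFs of ribosomes immunoprecipitated with an anti-FLAG antibody (IP RPFs) from the 6 tagged clones, which makes 15 libraries. An IP from untagged cells was not analysed here. The comparisons ask whether tagging changes what is translated, and whether ribosomes with either paralog hold different mRNAs.

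The libraries held between 3972152 and 8064166 counts. All 10 embryonic stem cell markers passed the filter, with summed levels of 4236 to 5024 normalized CPM (counts scaled to a common library size, with TMM factors), while of 13 markers of fibroblasts, endoderm, mesoderm and neural cells only Thy1 and Eomes passed. The clones did not form a uniform set. Tet1, an enzyme of DNA demethylation, was at 1.95 to 3.08 normalized CPM in the total RPFs of 4 clones (replicate 1 of each line and replicate 2 of Rps27l-FLAG) and at 417 to 431 in the other 5. Expressed as a deviation from the mean of the 9 total libraries, the median replication gene lay at -0.10 to -0.02 on the log2 scale in the 4 clones low in Tet1 and at 0.01 to 0.09 in the other 5. The part of this split in the results below was not tested beyond refits. Those without the 4 clones low in Tet1 are given beside each total comparison. Refits of the total RPFs with the Tet1 level as a block were also run and are not given here.

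Many of the genes share a promoter feature that the choice of names did not use. E2F factors, which switch on genes at the entry into S phase, bind DNA words of the kind TTTCCCGC, TTTCGCGC, TTTGCCGC or TTTGGCGC. RefSeq promoter windows on GRCm38.p6, from 250 bases before to 50 bases after a transcription start, were found for 37 of the 46 genes, and 15 of these 37 (40.5%) held at least 1 of the 4 words on either strand. Over all genes with a window the share was 2.61% (704 of 27025). That set was not limited to genes with tested transcripts, as the 46 are, so the shares come from unlike sets. The genes with the word include Mcm3, Mcm5, Mcm6 and Mcm7, Orc1 and Orc3, Cdc6 and Cdt1, and the polymerase subunits Pola1, Pold1, Pold3 and Pole2. Parts of the Mcm windows are shown, with the words in capitals, because the subunits of this helicase are among the genes with the densest footprints. Overlapping words, as in Mcm5 and Mcm6, run together.
Mcm3: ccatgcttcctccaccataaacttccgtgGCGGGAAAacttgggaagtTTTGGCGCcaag
Mcm5: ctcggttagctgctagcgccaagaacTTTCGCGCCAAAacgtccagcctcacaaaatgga
Mcm6: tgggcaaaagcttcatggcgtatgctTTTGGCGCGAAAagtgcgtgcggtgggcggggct
Mcm7: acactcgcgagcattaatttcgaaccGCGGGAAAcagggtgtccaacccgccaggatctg
The coordinates of these stretches are chr1:20820263-20820322 for Mcm3, chr8:75109330-75109389 for Mcm5, chr1:128359782-128359841 for Mcm6 and chr5:138172015-138172074 for Mcm7. The sequence of Mcm5 is on the plus strand and the other 3 are on the minus strand, each written 5′ to 3′ along its gene.

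Pcna, the sliding clamp that holds polymerases on DNA, cannot be read from these counts. Only uniquely aligned reads were kept, and 586 of the 759 windows of 28 nt in its coding sequence (CDS) also occur in Pcna-ps2, an intronless copy on chromosome 19 (9283380 to 9284160). Over 781 compared bases the copy differs from Pcna at 6. The stretch of 90 nt with the most differences, bases 88 to 177 of the Pcna CDS, holds 2 of them, shown in capitals to make plain how little separates the copies.
Pcna: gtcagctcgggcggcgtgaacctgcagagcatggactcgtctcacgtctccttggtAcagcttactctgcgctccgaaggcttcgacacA
Pcna-ps2: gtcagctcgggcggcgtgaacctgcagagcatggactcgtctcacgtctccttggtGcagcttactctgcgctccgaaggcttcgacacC
Pcna kept 16 to 57 counts per library and Pcna-ps2 2 to 31, and its values below are not read as the translation of the clamp. Rpa1 shared 14 of its 1845 windows with other transcripts, and the other 44 genes shared 0.

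Replication genes had dense footprints in these cells. Their footprints made up 1.30% ± 0.049 (SD, n = 3) of the tested counts in WT total RPFs, 1.35% ± 0.031 in Rps27-FLAG and 1.32% ± 0.0073 in Rps27l-FLAG. To compare genes, normalized CPM were divided by the length of counted CDS in kb, and values per kb in this and the next paragraphs are WT means ± SD over the 3 clones. The median tested transcript had 25.4, and of the 46 genes only Gins3 and Pcna lay under it.

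The 6 subunits of the Mcm2-7 ring, which are assembled in equal numbers, lay within 1.46-fold of each other, from 323 ± 22.7 per kb for Mcm2 to 473 ± 38.8 for Mcm7. Between them were Mcm4 at 349.7 ± 3.57, Mcm6 at 369.7 ± 30.4, Mcm5 at 391 ± 19.2 and Mcm3 at 409 ± 15.6. Mcm2 and Mcm7 did not overlap with their neighbours in this order, while the clones of Mcm4 and Mcm6, of Mcm6 and Mcm5, and of Mcm5 and Mcm3 did. In each of the 15 libraries the highest of these subunits was 1.27 to 1.56 times the lowest. Rrm2, the small subunit of ribonucleotide reductase, which makes deoxyribonucleotides, was the highest of all at 501 ± 21.4 per kb, with clones that overlapped those of Mcm7. Its partner Rrm1, the large subunit, was at 258 ± 11.0.

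RPA, which coats single-stranded DNA, followed with Rpa1 at 350.3 ± 11.4, Rpa2 at 252 ± 17.3 and Rpa3 at 203 ± 10.6 per kb, in this order in every WT clone. Geminin (Gmnn), the inhibitor of Cdt1, was at 281 ± 1.23 and Cdt1 itself at 167 ± 16.4, so that the inhibitor had 1.70 ± 0.17 (SD, n = 3) times the density of its target. Cdc6 was lower, at 85.7 ± 4.27. The origin recognition complex spread over 2.77-fold, from Orc4 at 57.7 ± 1.40, through Orc3 at 75.7 ± 3.10, Orc2 at 86.1 ± 6.24 and Orc1 at 100.1 ± 10.6, to Orc6 at 156 ± 18.7 and Orc5 at 160.0 ± 18.1. The clones of Orc6 and Orc5 overlapped, as did those of Orc2 and Orc1.

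The polymerase subunits were all lower than the ring and within 2.50-fold of each other. The leading-strand polymerase ε had its catalytic subunit Pole at 50.2 ± 3.12 and Pole2 at 51.5 ± 6.61 per kb. Polymerase δ, which extends the lagging strand, had Pold1 at 72.3 ± 13.4, Pold3 at 72.7 ± 7.33 and Pold2 at 126 ± 10.5. The priming complex had Prim2 at 56.4 ± 7.04, Pola2 at 72.0 ± 4.37, Pola1 at 86.9 ± 10.1 and Prim1 at 106 ± 12.8. The clamp loader subunits rose from Rfc1 at 63.7 ± 2.44, over Rfc2 at 77.5 ± 5.38, Rfc3 at 96.4 ± 9.43 and Rfc4 at 151 ± 14.7, to Rfc5 at 219 ± 8.33.

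GINS, a complex of equal parts, was the least even. Gins1 at 118 ± 10.8, Gins4 at 115 ± 5.06 and Gins2 at 81.9 ± 6.51 per kb had the higher levels, and Gins3 was at 16.1 ± 0.832, 7.32-fold under Gins1, although none of its 28-nt windows is shared with another transcript. Cdc45 was at 65.5 ± 3.38 and Mcm10 at 102 ± 12.2. The kinase Cdc7 was at 32.2 ± 4.53 against 84.6 ± 4.01 for its activating subunit Dbf4. Lig1 and Fen1, which seal and trim Okazaki fragments, were at 167 ± 6.47 and 151 ± 2.77, and Atad2 at 94.4 ± 9.72.

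**Figure D1:**
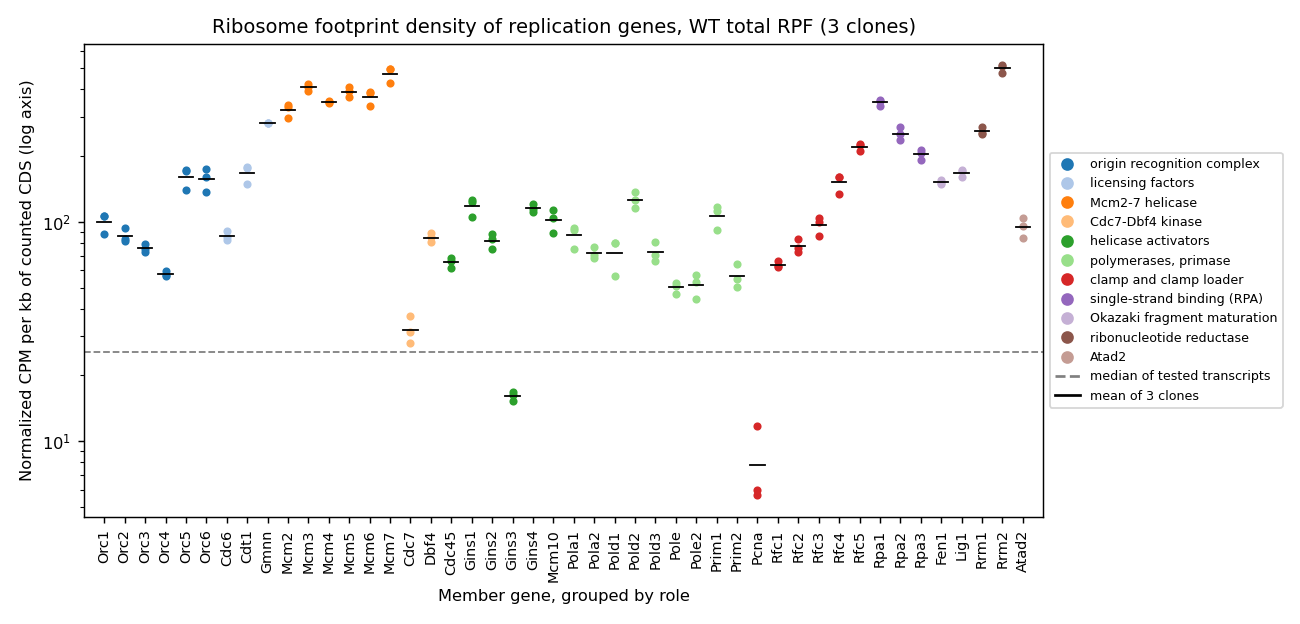
Normalized CPM per kb of counted CDS (log axis) of the 46 replication genes in the WT total RPFs, grouped by role, with a point for each of the 3 clones, a black bar for their mean and a dashed line for the median of all tested transcripts (25.4). Rrm2, the Mcm2-7 ring and Rpa1 are at the top, and only Gins3 and Pcna are under the dashed line.

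Between the lines, the total RPFs of the replication genes did not pass the test in any comparison. Tested by edgeR (quasi-likelihood, Benjamini-Hochberg adjustment over all tested transcripts), 0 of 46 genes were called at an adjusted p under 0.05 in Rps27-FLAG against WT, where 0% of all transcripts were called, 0 in Rps27l-FLAG against WT (0% of all) and 0 in Rps27l-FLAG against Rps27-FLAG (0% of all). limma-voom and DESeq2 also called 0 of the 46 and 0% of all transcripts in each. An unadjusted p under 0.05 was reached by 2, 3 and 1 of the 46, beside 294, 574 and 580 of all 10085 transcripts. With the replicate number, which marks a pool of libraries, as a block, 0 of 46 were called in each comparison, against 0.00992%, 1.43% and 1.36% of all transcripts.

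The shifts were small. In Rps27-FLAG against WT 32 of the 46 genes were above 0, with a median log2 fold change of 0.063 against -0.0011 for all transcripts. The origin subunit Orc3 was at 157, 165 and 152 normalized CPM in the WT clones and at 181, 183 and 180.1 in the Rps27-FLAG clones, with no overlap, for a log2 fold change, with its standard error (SE), of 0.20 (SE 0.0556, adjusted p = 0.999). The clamp loader subunit Rfc4 was at 139, 165 and 165 in WT and 166, 198 and 177 in Rps27-FLAG, which gave a log2 fold change of 0.21 with an SE of 0.0945. Replicate 1 of WT was the low clone for Rfc4, and the other WT clones lay just under the lowest tagged clone. The fold change of Rfc4 was 0.13 without WT replicate 1 and 0.14 without Rps27-FLAG replicate 2. In all, 8 of the 46 genes were higher in Rps27-FLAG with no overlap of clones (against 4.08% of all transcripts) and 0 were lower (against 4.44% of all). Among the 8 were Rfc2 and Rpa1, with log2 fold changes of 0.15 and 0.14. Without the clones low in Tet1 Rfc2 was at 0.074, and 0 of 46 were called, against 0.337% of all transcripts.

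In Rps27l-FLAG against WT 22 of the 46 genes were above 0 and the median was -0.011, against 0.0026 for all transcripts. Cdc45 was at 112, 108 and 101 normalized CPM in WT and 119.8, 129.6 and 135 in Rps27l-FLAG, which gave a log2 fold change of 0.26 (SE 0.0773, adjusted p = 0.821). Orc4 was at 70.4, 71.0 and 73.6 in WT and 77.6, 82.0 and 87.1 in Rps27l-FLAG, which gave a log2 fold change of 0.20 with an SE of 0.0711. Orc3 and Mcm4 also had clones that did not overlap, at 0.16 and 0.06, which makes 4 of the 46 genes higher without overlap (against 4.8% of all transcripts) and 0 lower (against 4.85% of all). Without the 4 clones low in Tet1, which leaves 1 Rps27l-FLAG clone that is assumed to vary like the others, 2 of 46 were called, against 4.05% of all transcripts. Cdc45 passed with a log2 fold change of 0.37 (adjusted p = 0.0355 from edgeR) and Orc5 with -0.32 (adjusted p = 0.0309).

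In Rps27l-FLAG against Rps27-FLAG 8 of the 46 genes were above 0 and the median was -0.065, against 0.0032 for all transcripts. The catalytic subunit Pold1 was at 234, 254 and 291 normalized CPM in Rps27-FLAG and 202, 217 and 225 in Rps27l-FLAG, which gave a log2 fold change of -0.27 (SE 0.128, adjusted p = 0.803). Orc5 was at 201, 228 and 213 in Rps27-FLAG and 172, 199.9 and 171 in Rps27l-FLAG without overlap, a log2 fold change of -0.24 with an SE of 0.0968, and it passed without the 4 clones low in Tet1 (log2 fold change of -0.37, adjusted p = 0.0168 from edgeR), as the 1 gene of 46 against 2.91% of all transcripts. Of the priming complex, Prim2 at -0.15 and Pola2 at -0.10 had clones that did not overlap, and Pola2 was at -0.06 without Rps27l-FLAG replicate 3. In all, 8 of the 46 genes were lower in Rps27l-FLAG without overlap (against 5.77% of all) and 0 were higher (against 5.73% of all). The 3 comparisons share libraries and are not independent of each other. Replicates 1 and 2 of Rps27l-FLAG were low in Tet1, against replicate 1 of Rps27-FLAG, and the part of this in the lower values was not tested. With all clones no gene passed the test. In bulk libraries fewer cells in S phase and fewer footprints per cell cannot be told apart, and RNA levels of these clones were not analysed here.

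The IP RPFs were then compared with the total RPFs of the same line, which asks whether tagged ribosomes hold more or less of an mRNA than all ribosomes do. In Rps27-FLAG, Atad2, Cdc7, Pold3, Pole, Rrm1 and Mcm3 were lower in the IP. Without the clone as a block, 6 of 46 genes fell (against 5.34% of all transcripts) and 0 rose (against 0.327% of all). The median log2 fold change of the 46 was -0.02, against -0.01 for all transcripts, and 20 of 46 were above 0. Their median SE was 0.073, against 0.131 for all transcripts, so the shares called, here and below, are not matched for precision. The summed stem cell markers were higher in the IP, at 4821 to 5024 normalized CPM against 4354 to 4495 in the total RPFs (4900 to 4952 against 4281 to 4463 in Rps27l-FLAG), and their part in the results was not tested.

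Atad2, a bromodomain ATPase that acts on chromatin in S phase, fell most (ENSMUST00000038194, chromosome 15 from 58094046 to 58135082 on the minus strand of GRCm38, CDS of 4095 nt). It was at 362, 399 and 430.2 normalized CPM in the total RPFs and at 202, 224 and 229 in the IP RPFs of the 3 Rps27-FLAG clones. The IP clones all lay far under the total clones, and the log2 fold change was -0.86 (SE 0.0823, adjusted p = 0.0016) in edgeR, a ratio of 0.550. In the single clones the log2 ratio of IP to total was -0.84, -0.83 and -0.91.

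The S phase kinase Cdc7 (ENSMUST00000031221, chromosome 5 from 106964322 to 106984432 on the plus strand) was at 55.3, 49.2 and 47.9 normalized CPM in the total and 39.4, 35.3 and 37.5 in the IP RPFs, and its log2 fold change was -0.44 (SE 0.0940, adjusted p = 0.0371). The polymerase δ subunit Pold3 (ENSMUST00000032969, chromosome 7 from 100082111 to 100121565 on the minus strand) was at 89.2, 96.6 and 99.7 in the total and 70.9, 77.6 and 78.7 in the IP, with -0.33 (SE 0.0755, adjusted p = 0.0456), a call that held in 5 of 12 other settings. The polymerase ε subunit Pole (ENSMUST00000007296, chromosome 5 from 110286306 to 110337474 on the plus strand) was at 332, 339 and 337 in the total and 266, 266 and 271 in the IP, with -0.33 (SE 0.0514, adjusted p = 0.0107). In each of these the highest IP clone was under the lowest total clone. The call of Pole held in 8 of the 12 other settings and those of Atad2, Cdc7, Rrm1 and Mcm3 in 9.

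Rrm1 (ENSMUST00000033283, chromosome 7 from 102441695 to 102469771 on the plus strand) was at 625, 631 and 639 normalized CPM in the total and 506, 511 and 521 in the IP RPFs, a log2 fold change of -0.30 (SE 0.0510, adjusted p = 0.0141). Its partner Rrm2 had log2 ratios of -0.04, 0.06 and 0.01 in the clones. The density of Rrm2 over Rrm1, per kb, was 1.79 ± 0.11 (SD, n = 3) in the total and 2.22 ± 0.17 in the IP RPFs, a difference that was not tested.

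Mcm3 (ENSMUST00000053266, chromosome 1 from 20802968 to 20820312 on the minus strand) was the only Mcm2-7 subunit called. It was at 960.4, 982 and 1013 normalized CPM in the total and 784, 809 and 811 in the IP RPFs, a log2 fold change of -0.30 (SE 0.0535, adjusted p = 0.0188). The other 5 subunits lay between -0.17 and 0.09 in the single clones, and Mcm3 lay under all of them in each clone, at -0.29, -0.28 and -0.32. In Rps27l-FLAG Mcm3 lay under the other 5 in replicates 1 and 3, at -0.12 and -0.20. In replicate 2 of that line it was at -0.064, just above the lowest of them at -0.067. The difference between Mcm3 and the other subunits was noticed in these values and was not tested.

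Towards higher IP values no gene passed. Geminin was at 148, 152 and 165 normalized CPM in the total and 177, 186 and 191 in the IP RPFs, a log2 fold change of 0.25 (SE 0.0653, adjusted p = 0.0665), and with DESeq2 it was 0.28 and passed (adjusted p = 0.0410). Rpa3 (0.22), Rpa1 (0.20) and Gins4 (0.15) were the next among genes whose IP clones all lay above the total clones, with adjusted p of 0.166, 0.162 and 0.243 from edgeR.

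Both libraries of a replicate were made from 1 clone, so the ratios can be taken within clones. With the clone as a block (the replicate block), 15 of 46 genes fell (against 22.9% of all transcripts) and 10 rose (against 18.3% of all), in place of 6 and 0. The 10 that rose are close to that background. Added to those above, Prim1, Pold2, Pole2, Pola1, Cdc45, Orc3, Dbf4, Mcm7 and Rfc1 fell, and Gmnn, Rpa3, Rpa1, Gins4, Cdt1, Cdc6, Mcm10, Orc2, Gins1 and Rfc4 rose. With the block Mcm2, Mcm5 and Mcm7 all had an SE of 0.030, while the SDs of their clone ratios were 0.035, 0.059 and 0.042. The p-values of the blocked fit thus rest largely on a spread shared over transcripts and less on the 3 clones of each gene. Without the block, leaving out replicate 1, the clone low in Tet1, gave 12 called genes (against 18.0% of all transcripts), while 0 were called when either of the other clones was left out (against 0% of all, with 7 of 46 at an unadjusted p under 0.05 each time).

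**Figure D2:**
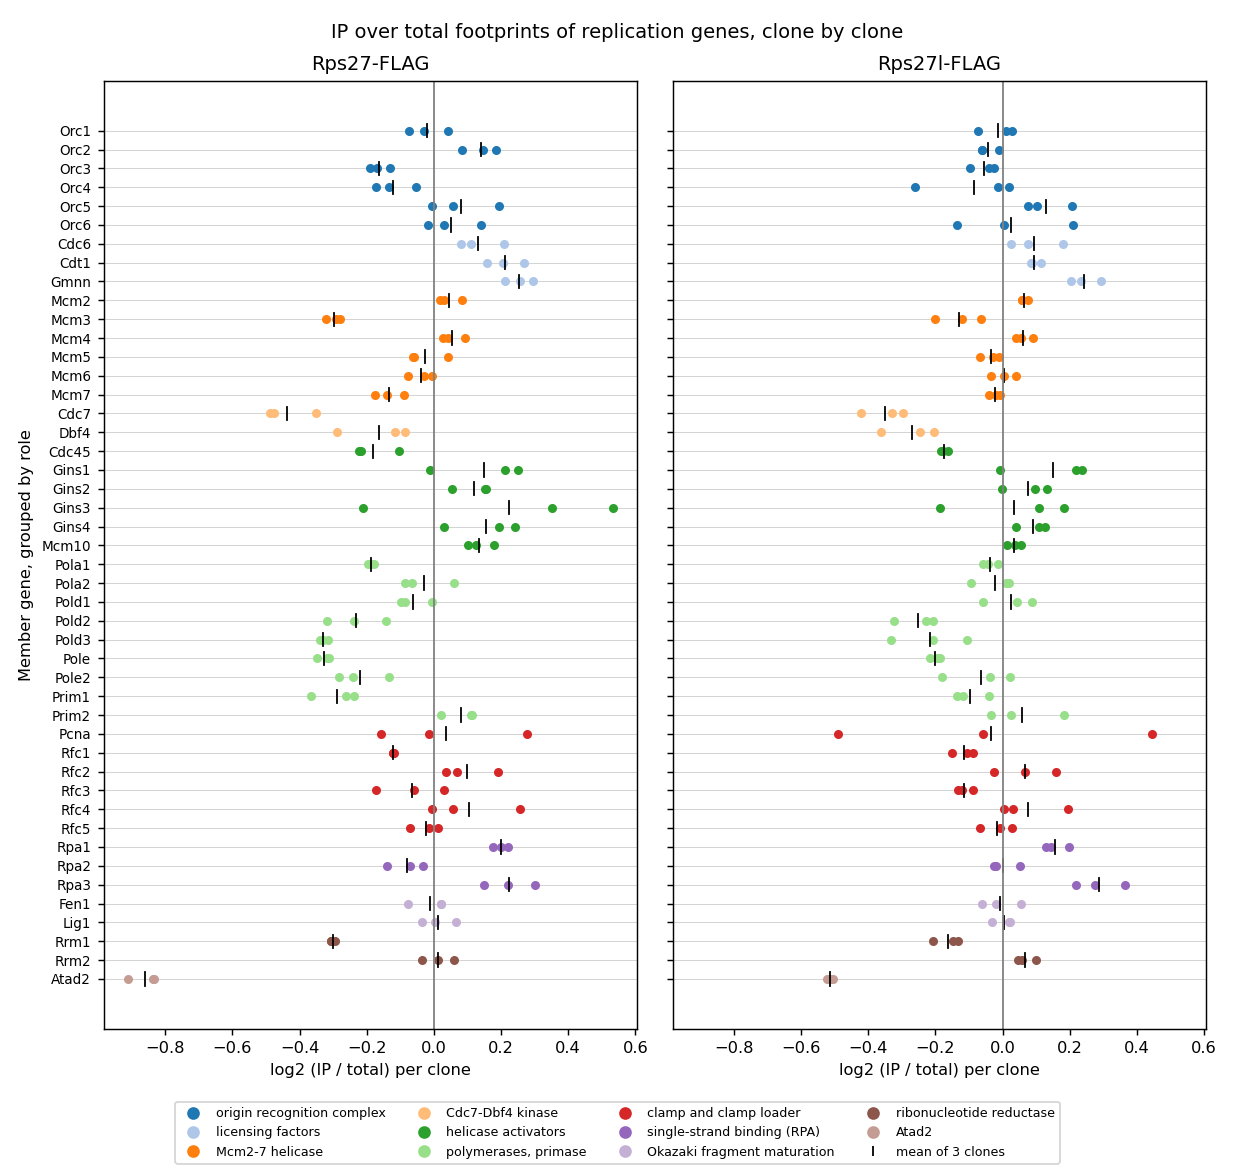
Log2 ratio of IP to total normalized counts for the 46 replication genes in each clone of Rps27-FLAG (left) and Rps27l-FLAG (right), grouped by role, with a point for each clone and a black bar for the mean of 3. Atad2 is far to the left in both lines, Cdc7, Pold2, Pold3, Pole, Rrm1 and Mcm3 are left of 0 in all 6 clones, Gmnn, Rpa1 and Rpa3 are right of 0 in all 6, and Pcna and Gins3 scatter.

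The signs of the clone ratios are given by role, as a description with no test. In Rps27-FLAG 19 of the 46 genes were below 0 in all 3 clones and 13 above 0 in all 3, beside 32.9% and 28.9% of all transcripts, and in Rps27l-FLAG 17 were below and 12 above, beside 31.7% and 23.7%. The licensing factors Cdc6, Cdt1 and Gmnn were above 0 in all 6 clones, and Cdc7 and Dbf4 were below 0 in all 6, though of these 5 only Cdc7 passed the test without the block, in Rps27-FLAG. Of the 9 polymerase and primase subunits 7 were below 0 in all 3 Rps27-FLAG clones and 5 in all 3 Rps27l-FLAG clones. Rpa1 and Rpa3 were above 0 in all 6 clones, while Rpa2 was below 0 in all 3 clones of Rps27-FLAG and of mixed sign in Rps27l-FLAG. Lig1 and Fen1 had mixed signs in both lines. Of the 6 origin recognition genes 2 were below 0 and 1 above 0 in all 3 clones of each line. Of the 6 Mcm2-7 genes 3 were below and 2 above in each line. The helicase activators, the clamp with its loader and ribonucleotide reductase also held genes of unlike sign.

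In Rps27l-FLAG the same comparison called fewer genes. Without the block 1 of 46 genes fell (against 2.27% of all transcripts) and 0 rose (against 0.833% of all), no more than the background, and the median log2 fold change was -0.01 against -0.03 for all. Atad2 was at 341, 363 and 359 normalized CPM in the total and 237, 255 and 251 in the IP RPFs, without overlap. Its log2 fold change was -0.51 (SE 0.0553, adjusted p = 0.00474) from edgeR, a ratio of 0.700. This call was lost without replicate 1 (adjusted p = 0.127) and without replicate 2 (0.252), where 0 genes were called (against 0% of all, with 6 of 46 at an unadjusted p under 0.05 each time), and was kept without replicate 3, as the 1 gene called against 3.16% of all transcripts.

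Cdc7 was at 64.3, 58.3 and 53.7 normalized CPM in the total and 48.0, 46.3 and 43.7 in the IP RPFs, a log2 fold change of -0.35 (SE 0.0954, adjusted p = 0.0985). Its partner Dbf4 was at 170.1, 178 and 165 in the total and 148, 139 and 139 in the IP, with -0.27 (SE 0.0656, adjusted p = 0.0706). Pold2, the polymerase δ subunit that links to its catalytic core, was at 144, 162 and 165 in the total and 125, 129.8 and 141 in the IP, with -0.25 (SE 0.0808, adjusted p = 0.151). The IP clones of all 3 genes lay under the total clones. Among those with IP clones above the total clones were Gmnn at 0.24, Cdc6 at 0.09, Gins4 at 0.09 and Mcm2 at 0.06, none past the threshold. Rpa3 had the highest log2 fold change, 0.29, with total clones at 59.4, 62.7 and 72.7 and IP clones at 71.8, 72.9 and 93.5, which overlapped.

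With the clone as a block 10 of 46 genes fell in the Rps27l-FLAG IP (against 19.0% of all transcripts) and 5 rose (against 12% of all), both close to the background. The 10 were Atad2, Cdc7, Dbf4, Pold2, Pold3, Pole, Cdc45, Rrm1, Mcm3 and Rfc1, and the 5 were Rpa3, Gmnn, Rpa1, Orc5 and Cdt1. All 10 that fell were among the 15 that fell with the block in Rps27-FLAG, and 4 of the 5 that rose were among its 10. The share of all transcripts called in both lines is not given here, so this overlap is not read as a trait of the genes. Across the 46 genes (genes are no replicates of each other) the log2 fold changes of the lines had Pearson's r of 0.910 and Spearman's rho of 0.900, and 42 had the same sign. The spread was smaller in Rps27l-FLAG, with a standard deviation over the genes of 0.15 against 0.21 in Rps27-FLAG, as it was over all transcripts (0.22 against 0.25).

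The length of the CDS moved with these ratios. Over the 46 genes the log2 fold change and the CDS length were related by a Spearman's rho of -0.45 for Rps27-FLAG and -0.38 for Rps27l-FLAG, and over all tested transcripts -0.56 and -0.53. The points share their libraries and the depth of each. The GC content of the CDS had rho of 0.12 and 0.16 over the genes. The short CDS of Rpa3 (366 nt) and Gmnn (621 nt) were high, and the long CDS of Pole (6852 nt), Pola1 (4398 nt) and Atad2 were low.

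Set beside transcripts with a CDS within 10% of its own length, Atad2 was low in both lines. In Rps27-FLAG 1.38% of 362 such transcripts had a lower log2 fold change, and their median was -0.24. In Rps27l-FLAG it was 5.25%, with a median of -0.19. Cdc7 had 4.77% of 1152 such transcripts under it in Rps27-FLAG and 4.86% in Rps27l-FLAG. Pold3 had 8.12% and 17.7% of 1182 under it, Rrm1 22.1% and 39.4% of 865, and Mcm3 24.0% and 48.7% of 821. Pole, in contrast, lay above the median of its neighbours, -0.33 against -0.39 in Rps27-FLAG and -0.20 against -0.33 in Rps27l-FLAG.

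When each library's trend with CDS length was also taken out of the blocked fit, 10 of 46 genes fell (against 13.0% of all transcripts) and 18 rose (against 18.1% of all) in Rps27-FLAG. In Rps27l-FLAG 5 fell (against 7.84% of all) and 16 rose (against 14.3% of all). The median SE was 0.037 for the genes and 0.082 for all transcripts in Rps27-FLAG, and 0.038 and 0.084 in Rps27l-FLAG. The shares over all transcripts are thus not matched for precision, and its part in the counts was not tested. Atad2, Cdc7, Pold2 and Pold3 were the 4 that fell in both lines, and 13 rose in both, among them Mcm2, Mcm4, Mcm6, Mcm10, Cdt1, Gmnn and Rpa1. For these counts, too, the share of all transcripts called in both lines is not given. Atad2 was then at -0.59 and -0.29, and Cdc7 at -0.38 and -0.30. Pola1 and Rfc1, which fell with the block alone in Rps27-FLAG, rose once the length trend was removed, as did Pole in Rps27l-FLAG. Pole turned from -0.33 to 0.063 in Rps27-FLAG (adjusted p = 0.127 from edgeR). With the length trend removed and no block, 0 of 46 genes were called in either line, against 0.278% of all transcripts in Rps27-FLAG and 0.0893% in Rps27l-FLAG.

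**Figure D3:**
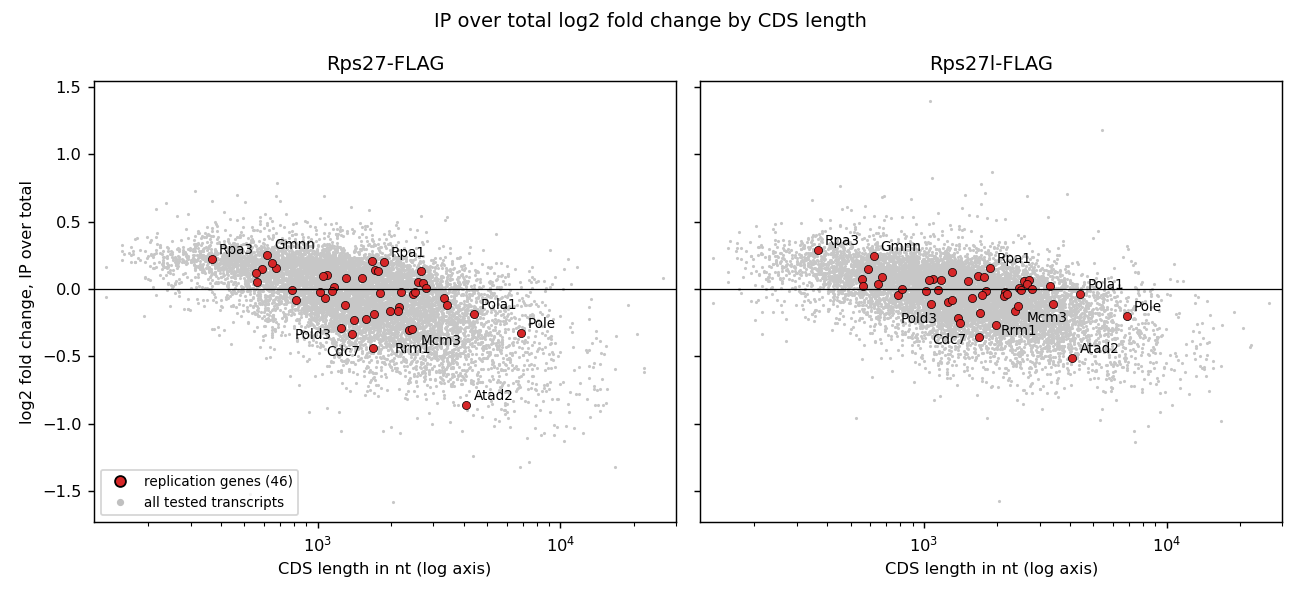
Log2 fold change of IP over total RPFs against CDS length in nt (log axis) for Rps27-FLAG (left) and Rps27l-FLAG (right), with all tested transcripts in grey and the 46 replication genes in red. The grey cloud falls towards long CDS, Atad2 lies near its lower edge, and Pole and Pola1 lie within it.

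Atad2 also has an unusual CDS. Its stretch of 30 codons with the most codons for aspartate and glutamate, codons 239 to 268, holds 22 such acidic codons. Of 10081 tested CDS 0.853% hold a stretch of 30 codons with as many, and the median is 9. Mcm3 has 14 of 30 in codons 657 to 686, which 8.25% of CDS reach. Both stretches are shown, from GENCODE M21 transcripts on GRCm38, with the acidic codons in capitals, since these genes had the lowest adjusted p among the 46 in the comparison of the tagged lines below.
Atad2: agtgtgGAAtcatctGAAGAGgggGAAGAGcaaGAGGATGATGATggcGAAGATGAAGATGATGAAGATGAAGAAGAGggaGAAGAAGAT
Mcm3: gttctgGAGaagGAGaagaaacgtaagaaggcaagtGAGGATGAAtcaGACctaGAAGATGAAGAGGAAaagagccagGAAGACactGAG
Over the 46 genes the number of acidic codons in the richest stretch and the log2 fold change of the IP were related by a rho of -0.34 for Rps27-FLAG and -0.37 for Rps27l-FLAG, against -0.18 and -0.16 over all tested CDS. The share of acidic codons in the whole CDS had rho of 0.11 and 0.089 over the genes and 0.04 and 0.067 over all. Pole, with 19 of 30, was the next highest gene, and longer CDS have more stretches to choose from. Cdc45, Orc1 and Pola1 had 15, and Mcm2 and Mcm10 had 14 like Mcm3. The log2 ratio of IP to total was above 0 in every tagged clone for Mcm2 and Mcm10. It was below 0 in every tagged clone for Cdc45 and Pola1, and of mixed sign for Orc1.

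The last comparison asks whether ribosomes with either paralog differ in the replication mRNAs they hold, as the difference of the IP effects in a fit with the clone as a term and without the transcript of Tmod3, which the study left out. It called a gene where the adjusted p was under 0.05 and the absolute log2 difference over 0.25. Here, too, the p-values rest largely on a spread shared over transcripts, with an SE of 0.038 to 0.039 for Mcm2, Mcm4, Mcm5, Mcm6 and Mcm7. Atad2 was the 1 gene of 46 that was higher in Rps27l-FLAG (against 0.466% of all transcripts) and 0 were lower (against 0.0992% of all). The median difference was 0.0075 for the genes and -0.0030 for all transcripts.

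For Atad2 the log2 ratio of IP to total was -0.84, -0.83 and -0.91 in the Rps27-FLAG clones and -0.52, -0.50 and -0.51 in the Rps27l-FLAG clones. Atad2 was depleted in every IP, more so with Rps27 than with Rps27l, and the clones of the lines did not overlap. The difference in edgeR was 0.34 (SE 0.0454, adjusted p = 2.17e-08). It was called in each of 6 fits without a clone, and at 0.35 (adjusted p = 7.92e-04) without the clones low in Tet1, where 0.188% of all transcripts were called. Without the clone in the fit (no replicate block) it was 0.35 and not called (adjusted p = 1.00).

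Without the limit on the size 3 of 46 genes passed as higher in Rps27l-FLAG (against 1.35% of all transcripts) and 0 as lower (against 0.139% of all). The 2 beside Atad2 were Mcm3 and Pola1. Mcm3 had log2 ratios of -0.29, -0.28 and -0.32 in the Rps27-FLAG clones and -0.12, -0.06 and -0.20 in the Rps27l-FLAG clones, a difference of 0.17 (SE 0.0391, adjusted p = 0.00475). Pola1, the catalytic subunit of the priming polymerase, had -0.19, -0.20 and -0.18 in Rps27-FLAG and -0.01, -0.04 and -0.06 in Rps27l-FLAG, a difference of 0.15 (SE 0.0422, adjusted p = 0.0405). In both genes the Rps27-FLAG clones were all lower. Mcm3 lost its call without Rps27l-FLAG replicate 2 (adjusted p = 0.0783 from edgeR) and without Rps27-FLAG replicate 3 (0.0900). Pola1 lost it whichever clone was left out (0.0830 to 0.198), with DESeq2 (0.230), with no filter (0.0650) and with the length trend removed (0.324). Without the clones low in Tet1, which leaves 1 Rps27l-FLAG clone, the differences were 0.10 for Mcm3 and 0.13 for Pola1 and neither passed, and with no replicate block both had an adjusted p of 1.00 in edgeR.

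Prim1, the catalytic primase, had the second largest difference upwards, 0.19 (SE 0.0615, adjusted p = 0.0897). Downwards, Orc2 had 0.19, 0.15 and 0.08 in the Rps27-FLAG clones and -0.01, -0.06 and -0.06 in the Rps27l-FLAG clones, a difference of -0.19 (SE 0.0574, adjusted p = 0.0743). Its sign thus differed between the lines in every clone. Cdt1 (-0.12) and Mcm10 (-0.10) were the other genes that were lower in Rps27l-FLAG without overlap of clones, with adjusted p of 0.203 and 0.332 from edgeR. In all, the clones of the lines did not overlap for 12 of the 46 genes, 9 of them higher in Rps27l-FLAG (against 9.08% of all transcripts) and 3 lower (against 7.13% of all).

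**Figure D4:**
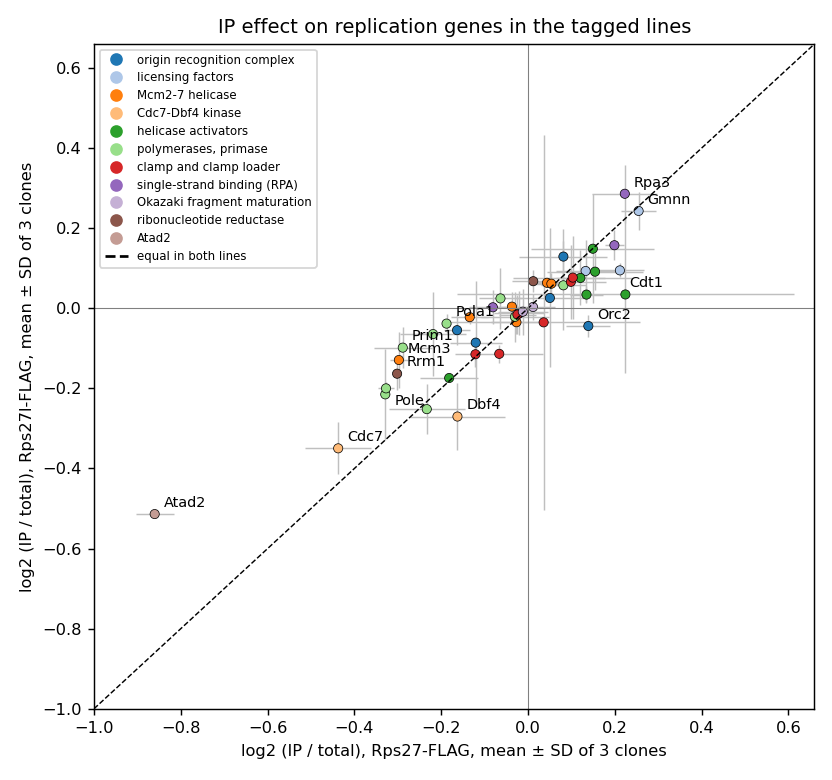
Log2 ratio of IP to total RPFs of the 46 replication genes in Rps27-FLAG (x axis) and Rps27l-FLAG (y axis), as means with bars of 1 SD over 3 clones, coloured by role, with a dashed line where both lines are equal. Atad2 lies far above the dashed line, Mcm3, Prim1 and Pola1 lie above it near the rest, and Orc2 lies below it.

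Other genes of replication, not among the 46, were also counted. A list of 55 fork accessory, chromatin assembly, topoisomerase, nucleotide supply and S phase regulator genes had 54 that passed the filter. In Rps27-FLAG 7 of the 54 fell in the IP (against 5.34% of all transcripts) and 0 rose, with a median log2 fold change of -0.08. In Rps27l-FLAG 3 fell (against 2.27% of all) and 0 rose, with a median of -0.02. The 3, named after their values were seen, were Timeless, Rif1 and Mms22l, with log2 fold changes of -0.45, -0.38 and -0.37 and CDS of 3594, 7281 and 3717 nt, and they were also among the 7. The test of the difference between the lines called 0 of the 54, and without the limit on the size 2 passed (against 1.35% of all), Rif1 at 0.14 and Top2a at 0.23, both higher in Rps27l-FLAG. In the total RPFs 0 of the 54 were called in each of the 3 comparisons (1, 0 and 3 at an unadjusted p under 0.05).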

How the data were processed

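Ribosome-protected fragments of 15 libraries were given in 1 table of counts per transcript, which the authors deposited without normalization. Per the labels and the study's methods, adapters were trimmed, fragments of rRNA, tRNA and snRNA were removed, reads were aligned to GRCm38 transcripts, duplicates with the same molecular identifier were collapsed, and only unique alignments were kept. The authors then counted ribosomal A sites in the CDS, leaving out 15 codons at its start and 5 at its end. The submitters' processing notes name cutadapt 2.4, UMI-tools 1.0.1 and Bowtie2 2.3.4.3. Unique alignment lowers the counts of genes with near-identical copies, and counting whole coding sequences gives longer genes more counts, so levels were compared between genes only per kb.

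The members and gene lists were chosen with earlier results of these data known. Transcripts were kept where 14 or more of the 15 libraries had over 2 CPM (10085 of 21727), after 13 mitochondrially encoded transcripts were left out, counts were TMM-scaled, and edgeR 4.0.16 (R 4.3.3) fitted its quasi-likelihood model over all kept transcripts, with Benjamini-Hochberg adjustment and a threshold of 0.05. Total RPFs were compared among the 3 lines, IP with total RPFs within each tagged line, and the IP effects of the lines in a fit with clone as a term, where a call also needed an absolute log2 difference over 0.25. Groups came from the sample labels, 0 columns were left unused, and the total counts per library limit the precision of genes with few counts. Text was spent on called members and, where fewer than 4 were called in a direction, on those with the largest change among members whose clones did not overlap, up to 4. Alternatives were limma 3.58.1 (voom), DESeq2 1.42.0, DESeq2 size factors, scaling over all libraries, other filters, removal of the length trend, the replicate block and leaving out each replicate. The settings on Tet1 were added after the data were seen. The scripts were tested on simulated data.

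Each replicate's IP and total libraries were made from 1 clone. Their deviations from the group means correlated at 0.483 to 0.798 in the 6 clones, so the replicate number pairs them. Total libraries of different lines share the library pool of their replicate number, and those of replicates 1 and 3 also their Tet1 level, with correlations of -0.167 to 0.719. Positions are those of GENCODE M21 on GRCm38, and promoters those of RefSeq on GRCm38.p6. The authors' transcripts came from another GENCODE release than M21.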

Additional observations from a re-analysis of the deposited data

Results flagged for a closer look

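The log2 difference between the IP effects of the lines (Rps27l-FLAG minus Rps27-FLAG, edgeR with the clone as a term) passed an adjusted p of 0.05 for 3 replication genes, and each is listed because it differs between the lines by the test of the difference itself. Atad2 had a difference of 0.34, Mcm3 of 0.17 and Pola1 of 0.15, with the IP less depleted in Rps27l-FLAG in each. The length of the CDS moved with the IP effect in both lines, and its part in the differences was not tested beyond the fit with the length trend removed, which gave 0.30 for Atad2, 0.16 for Mcm3 and 0.10 for Pola1. In that fit Pola1 did not pass (adjusted p = 0.324 from edgeR). Over the 46 genes CDS length and this difference had a Spearman's rho of 0.38, against 0.17 over all transcripts. Among transcripts within 10% of each gene's CDS length, 95.3% had a lower difference than Atad2, 86.4% than Mcm3 and 79.1% than Pola1.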

How the results depend on the processing

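The counts of called replication genes depended on the fit. In the Rps27-FLAG IP the 6 genes (beside 5.34% of all transcripts lower and 0.327% higher) became 25 with the replicate block (beside 22.9% and 18.3%). The count was 28 with the block and the length trend removed (beside 13.0% and 18.1%). It was 0 with the length trend removed alone (beside 0.278% in either direction), and 0 to 12 without single replicates (beside 0% to 18.0%). In the Rps27l-FLAG IP the 1 gene (beside 2.27% of all transcripts lower and 0.833% higher) became 15 with the block (beside 19.0% and 12%). With the block and the length trend removed it became 21 (beside 7.84% and 14.3%). It was 0 with the length trend removed alone (beside 0.0893% in either direction), and 0 to 1 without single replicates (beside 0% to 3.16%). For the difference between the lines the 1 gene (beside 0.466% of all transcripts higher and 0.0992% lower) became 0 with no replicate block, where 0 of all transcripts were called. It became 3 with no limit on the fold change (beside 1.35% higher and 0.139% lower). Without the clones low in Tet1, Rps27l-FLAG gave 2 genes against WT and 1 against Rps27-FLAG in place of 0 (beside 4.05% and 2.91% of all transcripts). The replicate block changed no count among the total RPFs. Pole turned from -0.33 to 0.063 in the Rps27-FLAG IP with the length trend removed, both with the block and without it (adjusted p = 0.127 and 0.727). The cause of these changes was not tested. Over the genes of the naming rule, each in the comparison where the rule names it, 482 values kept direction and side of the threshold, 25 lost the threshold, 23 gained it and 2 reversed, both of Pole. The 482 include named genes that were not called and stayed so. Calls in the Rps27-FLAG IP held in 5 (Pold3) to 9 of 12 other settings. That of Atad2 held in 9 of 12 in the Rps27l-FLAG IP and in 15 of 16 for the difference between the lines. Outside that rule Pola1 and Rfc1 (Rps27-FLAG) and Pole (Rps27l-FLAG) also turned with the block and the length trend removed. The IP of Rps27l-FLAG could not be fitted without the clones low in Tet1, which leave 1 library on each side. Gins3 (42 to 108 counts) is limited by depth. Pcna (16 to 57 counts) is limited by the windows it shares with Pcna-ps2, since only unique alignments were kept.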
